A study of Mus musculus with 8 samples.

Results

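A set of 10 genes that carry fatty acids and lipoproteins into the hepatocyte, store them in lipid droplets and export them again was followed in cells with and without VWA8, a mitochondrial protein with an ATPase domain. They were Cd36 and Vldlr (uptake), Fabp1 and Fabp5 (carriers inside the cell), Dgat1 and Dgat2 (triglyceride synthesis), Plin2 and Plin5 (droplet coat), Pnpla2 (lipolysis) and Mttp (lipoprotein assembly). The genes were taken by name, with earlier results of these data known. Each was represented by its brightest probe set that carries a single gene symbol, and all 10 were measured among the 22180 genes of the table. The cells were AML12, a hepatocyte line from mouse liver. One group of 4 cultures was wild type and the other group of 4 cultures was VWA8-null, the gene having been deleted with CRISPR/Cas9. Both groups were grown with serum, insulin, transferrin, selenium and dexamethasone, a synthetic glucocorticoid, and were differentiated before RNA was taken. Each culture was measured on 1 Affymetrix mouse array. The sources used here do not say how many clones the knockout cells came from, so an effect of losing VWA8 and the peculiarities of a clone cannot be told apart. In whole-culture RNA, fewer cells of a type and less RNA per cell cannot be told apart either.

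Hepatocytes take up free fatty acids with the help of the membrane protein CD36, and bind them inside the cell to fatty acid binding proteins. Diacylglycerol acyltransferases join the last fatty acid to make triglyceride, which is either stored in droplets coated with perilipins or loaded onto apolipoprotein B by the microsomal triglyceride transfer protein and secreted as very low density lipoprotein. Stored triglyceride is opened again by adipose triglyceride lipase, the product of Pnpla2. Several of these genes are known targets of PPAR nuclear receptors, and Mttp is a known target of HNF4A.

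Values are log2 signals as deposited, and their medians lay between 4.27 and 4.33 on the 8 arrays. The median gene had a mean signal of 4.57. Vwa8 itself, the targeted gene, stood between 8.91 and 9.01 in wild type and between 5.07 and 5.33 in the knockout, a log2 difference of -3.77 ± 0.070 (SE, n = 4 arrays per group). All 9 measured hepatocyte markers (Alb, Ttr, Apoa1, Apob, Ahsg, Fga, Fgb, Serpinc1 and Hnf4a) were above the median gene in mean over the 8 arrays. Serpinc1 was so only through the knockout, with means of 4.45 in wild type and 6.79 in the knockout. All 9 rose in the knockout, where their summed linear signal ran from 30644 to 32353, against 23041 to 23825 in wild type. The part of these markers in the results on the lipid genes was not tested. Of the 7 adipocyte, 9 macrophage, 8 stellate cell and 6 endothelial markers, 0 passed limma's adjusted p of 0.05. At an unadjusted p under 0.05 there were 2, 1, 1 and 0. No more than 1 marker of each of these lists was above the median gene, and the summed signals of the genotypes overlapped, for example 140 to 155 in wild type and 147 to 155 in the knockout for the macrophage list. Of 4 cholangiocyte markers 1, Krt7, fell, by 0.52 ± 0.083 on the log2 scale (adjusted p = 0.0022), and the summed signal of that list overlapped too.

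Of the 10 lipid genes, 5 were higher and 2 lower in the knockout at an adjusted p of 0.05 in limma. Over all 22180 genes the same test called 10.4% higher and 10.4% lower. The set was chosen with earlier results of these data known, so its counts describe these genes only. All 10 were above the median gene in mean signal over the 8 arrays, and of the 11090 genes above it 18.6% were called higher and 18.3% lower. Plin5 was above the median gene (4.57) only through the knockout, with means of 4.56 in wild type and 4.86 in the knockout. Mttp, Fabp1, Vldlr, Cd36 and Dgat2 rose, by 1.42-fold to 2.62-fold, and Fabp5 and Plin2 fell, by 1.53-fold and 1.26-fold. Dgat1, Plin5 and Pnpla2 did not pass. Mttp, Fabp1 and Vldlr, 3 of the 10, changed at least 2-fold, as did 2.03% of all genes, and Cd36 lay just under that fold. The median log2 difference was 0.40 over the 10 and -0.003 over all genes, and the median absolute difference 0.56 over the 10 and 0.14 over all genes. The arrays of the knockout lay wholly above those of the wild type for 5 genes and wholly below for 3, while 12.9% and 13.2% of all genes were separated in these directions. The SD between arrays of 1 genotype ran from 0.014 to 0.165 over the 10 genes, with a median of 0.101.

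**Figure D1:**
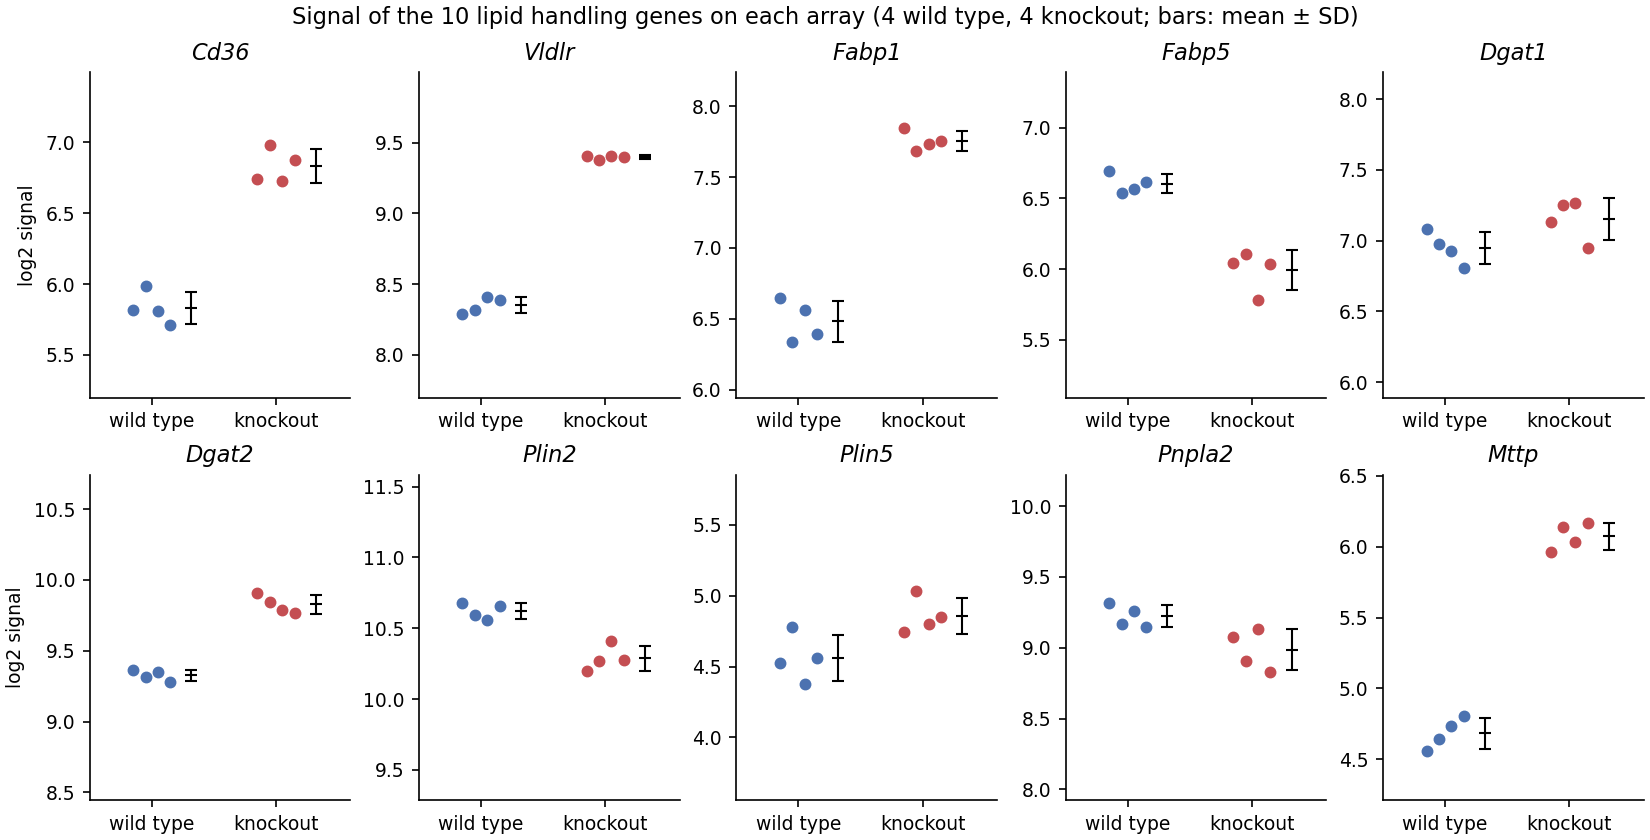
Log2 signal (y axis) of each of the 10 genes on the 4 wild-type arrays (blue) and the 4 knockout arrays (red), with the mean and SD beside them. Each panel spans the same range of log2 units around its own centre, so that distances between groups can be compared but levels cannot. The groups overlap only for Dgat1 and Plin5.

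The uptake genes both rose. Cd36, the fatty acid translocase (chromosome 5, 17781690 to 17888959 in assembly GRCm38.p6), read 5.81, 5.99, 5.81 and 5.71 in wild-type replicates 1 to 4 and 6.74, 6.98, 6.73 and 6.88 in the knockout. The lowest knockout array stood 0.74 above the highest wild-type array. The log2 difference was 1.00 ± 0.084 (SE; 2.00-fold, limma adjusted p = 5.34e-05). Vldlr, a receptor that takes up triglyceride-rich lipoproteins through apolipoprotein E (chromosome 19, 27216480 to 27254231), read 8.29, 8.32, 8.41 and 8.39 in wild type and 9.41, 9.37, 9.40 and 9.40 in the knockout. The knockout arrays were nearly equal, with an SD of 0.014, and the gap between the groups was 0.96. Vldlr rose by 1.04 ± 0.054 (2.06-fold, adjusted p = 3.92e-06).

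The carriers moved in opposite directions. Fabp1 encodes the liver form of the fatty acid binding proteins (chromosome 6, 71199879 to 71205034). It read 6.65, 6.33, 6.56 and 6.39 in wild type and 7.85, 7.69, 7.73 and 7.75 in the knockout, with a gap of 1.04 between the groups, and rose by 1.27 ± 0.082 (2.42-fold, adjusted p = 1.20e-05). Fabp5 encodes the epidermal form, which is also known from macrophages and fat (chromosome 3, 10012585 to 10016610). Its brightest probe set, 17396056, read 6.70, 6.54, 6.56 and 6.61 in wild type and 6.04, 6.10, 5.78 and 6.04 in the knockout. No knockout array reached the lowest wild-type array, and Fabp5 fell by 0.61 on the log2 scale (SE 0.081; adjusted p = 0.000725).

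Fabp5 was the only one of the 10 genes with further probe sets, 3 in number. Probe set 17548238 went from 6.56 ± 0.143 (SD, n = 4) to 5.76 ± 0.106 (n = 4), a difference of -0.79, and probe set 17548717 from 6.50 ± 0.140 to 5.72 ± 0.103, a difference of -0.77. The last, 17404073, was dim, at 3.47 ± 0.291 and 3.09 ± 0.460, and its groups overlapped. The 3 brighter probe sets each separated the genotypes with the knockout lower. Processed copies of Fabp5 are known in the mouse genome and the sources used here do not give the probe sequences, so signal from a copy cannot be told apart from that of Fabp5.

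**Figure D2:**
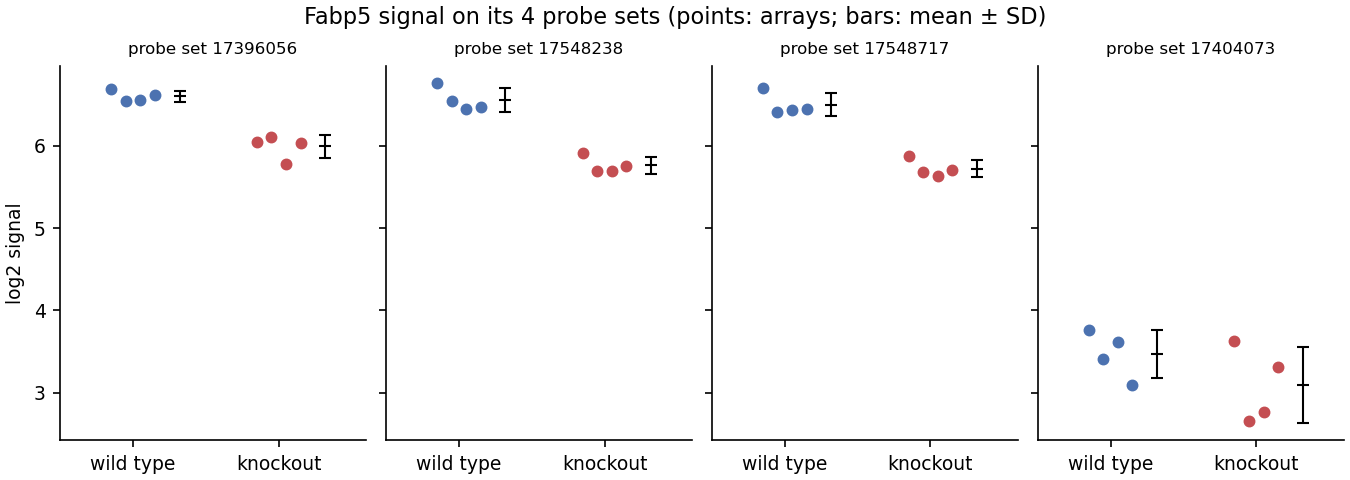
Log2 signal (y axis) of the 4 Fabp5 probe sets on the 4 wild-type (blue) and 4 knockout (red) arrays, with mean and SD. The 3 brighter probe sets differ by -0.61 to -0.79, and the dimmest one has overlapping groups.

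Triglyceride synthesis was represented by a pair of enzymes that are not related in sequence but catalyse the same last step. Dgat2, which is known to use newly made fatty acids in liver (chromosome 7, 99153663 to 99182713), read 9.36, 9.31, 9.35 and 9.28 in wild type and 9.91, 9.85, 9.79 and 9.77 in the knockout. The groups were 0.40 apart, and Dgat2 rose by 0.50 ± 0.057 (1.42-fold, adjusted p = 0.000301). Dgat1, the enzyme of the endoplasmic reticulum that also re-esterifies fatty acids taken up from outside (chromosome 15, 76502012 to 76512021), read 7.08, 6.98, 6.93 and 6.81 in wild type and 7.13, 7.25, 7.27 and 6.95 in the knockout. Knockout replicate 4 lay within the wild-type range, and the difference of 0.20 ± 0.090 did not pass (95% confidence interval -0.003 to 0.41, adjusted p = 0.167).

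The droplet coat genes also differed from each other. Plin2, the perilipin found on droplets of most cells and known to be degraded as a protein when it is not bound to a droplet (chromosome 4, 86626910 to 86670217), had the brightest probe set of the 10. It read 10.68, 10.60, 10.56 and 10.66 in wild type and 10.20, 10.27, 10.41 and 10.28 in the knockout, with 0.15 between the groups. Plin2 fell by 0.33 on the log2 scale (SE 0.064; 1.26-fold, adjusted p = 0.00568). Plin5, the perilipin known for linking droplets to mitochondria (chromosome 17, 56111597 to 56117606), was near the median gene at 4.52, 4.78, 4.38 and 4.56 in wild type and 4.74, 5.03, 4.80 and 4.85 in the knockout. Wild-type replicate 2 lay inside the knockout range, and knockout replicate 1 inside the wild-type range. The difference of 0.30 ± 0.098 did not pass (95% confidence interval 0.07 to 0.52, adjusted p = 0.0667). Without wild-type replicate 2 it was 0.37 and passed (adjusted p = 0.0258). With any other single array left out it did not pass (limma adjusted p from 0.0737 to 0.156). A dim signal such as that of Plin5 cannot be told from no expression, and its changes can be compressed.

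Pnpla2, the lipase that takes the first fatty acid from stored triglyceride (chromosome 7, 141455188 to 141460743), read 9.32, 9.17, 9.26 and 9.15 in wild type and 9.08, 8.91, 9.13 and 8.83 in the knockout. The groups did not overlap, but only 0.016 separated them. The log2 difference was -0.24 ± 0.083 and did not pass (95% confidence interval -0.43 to -0.05, adjusted p = 0.0778). Without knockout replicate 3 it was -0.29 with an adjusted p of 0.0499. With any other single array left out it did not pass (limma adjusted p from 0.0865 to 0.174). After removing the median change of its chromosomal neighbours the difference was -0.12 (adjusted p = 0.355).

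Mttp, the transfer protein that loads lipid onto nascent apolipoprotein B (chromosome 3, 138089855 to 138143418), had the largest change of the 10. It read 4.56, 4.64, 4.73 and 4.80 in wild type, close to the median gene, and 5.96, 6.14, 6.03 and 6.17 in the knockout. The groups were 1.16 apart and Mttp rose by 1.39 ± 0.076 (2.62-fold, adjusted p = 5.12e-06), a change that 165 of the 22180 genes exceeded in size. Because the wild-type signal was dim, it cannot be told from no expression, and this fold can be compressed. The 30 nearest genes above the median signal on each side of Mttp had a median difference of 0.25, the highest among the 10 genes, and subtracting it left 1.14. For Cd36 the median of such neighbours was -0.15, the lowest among the 10.

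**Figure D3:**
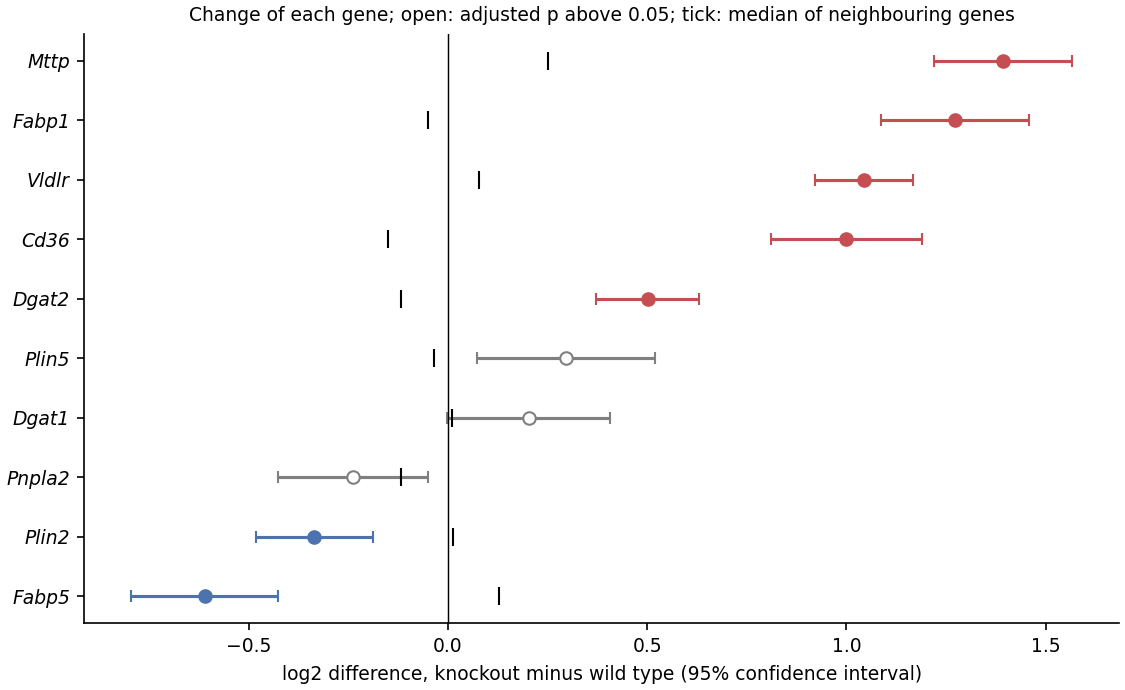
Log2 difference between knockout and wild type (x axis, with 95% confidence interval from limma) of the 10 genes, ordered by size. Filled points passed an adjusted p of 0.05, open points did not, and the short ticks give the median difference of neighbouring genes on the chromosome, which lies between -0.15 and 0.25.

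Unequal changes of genes that act in the same or a linked step of lipid handling were tested within arrays. The measure was the log2 difference between 2 genes on the same array. An array effect that shifts both genes equally cancels in it, while one that depends on signal level does not. The 5 pairs were compared with exact two-sided permutation tests over the 70 arrangements of the arrays, for which 0.0286 is the smallest p that 4 against 4 arrays allow. Fabp1 relative to Fabp5 was higher in the knockout by 1.88 (exact p = 0.0286, 0.0476 adjusted over the 5 pairs). Fabp1 rose and Fabp5 fell, each without overlap of the groups, so the p of this pair was fixed by the values above. Plin5 relative to Plin2 was higher by 0.63, and Dgat2 relative to Dgat1 by 0.30, each with the same p and adjusted p. Their adjusted p is under 0.05 only because 3 pairs, the fixed one included, reached the smallest p. In these 3 pairs all 4 knockout arrays lay above all 4 wild-type arrays. Plin5 itself missed the threshold, so that its pair shows an unequal change of signal and not a rise of Plin5. The mean within-array difference of Plin5 minus Plin2 was -6.06 in wild type, and the part of compression of the dimmer signal was not tested. For Vldlr relative to Cd36 the difference in change was 0.04 (exact p = 0.743, 0.743 adjusted), and shifts from -0.28 to 0.345 were not rejected by the test. For Pnpla2 relative to Plin2 it was 0.10 (exact p = 0.371, 0.464 adjusted), and shifts from -0.155 to 0.39 were not rejected. Unequal change of these last 2 pairs was not detectable within those bounds.

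**Figure D4:**
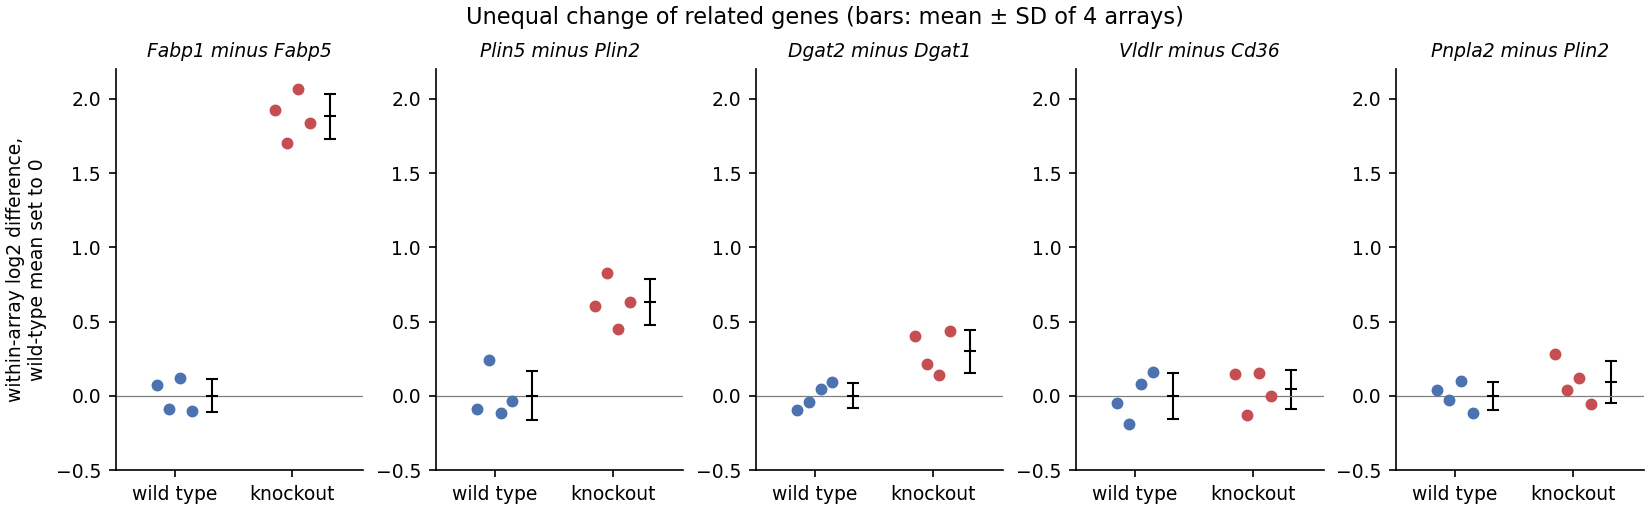
Within-array log2 difference between the 2 genes of each pair (y axis, wild-type mean set to 0) on the 4 wild-type (blue) and 4 knockout (red) arrays, with mean and SD. Knockout arrays lie above all wild-type arrays for the first 3 pairs, by means of 1.88, 0.63 and 0.30, and overlap with them for the last 2.

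Promoter windows of RefSeq (GRCm38.p6), from 250 bases before to 50 bases after a start site, were matched by symbol for 7 of the 10 genes, with 9 windows in all. They are shown for Fabp1, Cd36 and Mttp, which rose, and for Plin2, which fell, to set genes of opposite direction side by side. Each is printed on its gene's strand with matches in capitals. The motifs were AGGTCA, the core hexamer bound by nuclear receptors such as the PPARs, read on both strands (TGACCT on the other), the E box CACGTG, and the TATA box TATAAA, both strands. No matches of different motifs overlapped.
Fabp1 (chr6:71199629-71199928, plus strand): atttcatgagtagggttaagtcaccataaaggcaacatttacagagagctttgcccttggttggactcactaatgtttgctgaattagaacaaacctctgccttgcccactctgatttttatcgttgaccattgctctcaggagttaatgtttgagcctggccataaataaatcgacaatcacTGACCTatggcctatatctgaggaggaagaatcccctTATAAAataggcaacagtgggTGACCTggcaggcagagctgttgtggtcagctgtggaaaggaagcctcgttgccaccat
Cd36 (chr5:17835847-17836146, minus strand): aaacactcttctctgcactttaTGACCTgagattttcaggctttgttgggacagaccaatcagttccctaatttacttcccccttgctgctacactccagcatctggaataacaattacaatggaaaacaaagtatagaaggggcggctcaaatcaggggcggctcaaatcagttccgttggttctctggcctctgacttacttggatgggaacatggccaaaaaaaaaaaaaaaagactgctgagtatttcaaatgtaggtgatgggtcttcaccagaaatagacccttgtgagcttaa
Mttp (chr3:138143369-138143668, minus strand): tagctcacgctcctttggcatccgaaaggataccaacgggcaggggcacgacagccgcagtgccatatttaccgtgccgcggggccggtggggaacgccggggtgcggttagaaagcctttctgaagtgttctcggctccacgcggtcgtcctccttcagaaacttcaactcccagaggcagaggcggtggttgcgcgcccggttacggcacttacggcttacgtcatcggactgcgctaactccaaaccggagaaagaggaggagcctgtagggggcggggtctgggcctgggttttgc
Plin2 (chr4:86670010-86670309, minus strand): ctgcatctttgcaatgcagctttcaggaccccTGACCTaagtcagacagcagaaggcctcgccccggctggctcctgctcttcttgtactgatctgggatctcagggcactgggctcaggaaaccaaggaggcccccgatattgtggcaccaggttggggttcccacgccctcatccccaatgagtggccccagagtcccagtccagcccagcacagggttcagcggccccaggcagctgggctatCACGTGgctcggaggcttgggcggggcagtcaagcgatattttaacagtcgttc
Fabp1 had 2 hexamers and a TATA box in its window, Cd36 had 1 hexamer, Mttp had no match, and Plin2 had 1 hexamer and an E box across its start. Among the other members, Plin5 had 1 hexamer in each of its 2 windows, and Vldlr and Pnpla2 had none. Of all 32851 windows, 16.3% held AGGTCA, 7.15% held CACGTG and 13.6% held TATAAA. The exact direct repeat of AGGTCA with 1 base between its copies was also searched on both strands and occurred in 0 of the 9 windows and in 0.0396% of all windows. Repeats with a differing letter were not searched. In the Fabp1 window the first hexamer is followed, after 1 base, by TGGCCT, which differs from TGACCT in 1 letter. The hexamer occurred in members that rose, fell or did not pass. A match describes letters in this window only.

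Other genes of lipid handling were counted in 6 lists of the same pathway, and factors known to regulate it in a seventh. Of 105 measured genes in the 7 lists, 53 (50.5%) rose and 8 (7.62%) fell, beside 10.4% each way over all genes. By mean signal over the 8 arrays, 81 of the 105 were above the median gene. Of these 81, 61.7% rose and 9.88% fell, beside 18.6% and 18.3% of all genes above it. Ces3a, named after its values were seen, is among the 81 only through the knockout (mean 4.46 in wild type and 5.64 in the knockout). The median log2 difference of the 105 was 0.24. These lists were written with earlier results of these data known, and no test of a list was made. Apob, the other perilipins and the genes that fell, where the rule of the 3 smallest adjusted p did not take them, were named after their values were seen.

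Lipoprotein assembly and secretion had 13 of 16 measured genes higher in limma and 0 lower (0 lower also at an unadjusted p under 0.05), with a median of 0.42. Sec24d, a cargo adaptor of the COPII vesicle coat, rose by 1.73 ± 0.073, A1cf, a cofactor of apolipoprotein B mRNA editing, by 1.56 ± 0.101, and Apoe, a ligand of lipoprotein receptors including that encoded by Vldlr, by 1.37 ± 0.083 (adjusted p no higher than 1.20e-05). Apob itself is among the 13, at 0.34 ± 0.052 on a wild-type level of 12.02, near the top of the range of the arrays, where changes can be compressed.

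Genes of triglyceride and sterol ester breakdown had 7 of 12 higher and 0 lower in limma (0 lower also at an unadjusted p under 0.05), with a median of 0.61. Aadac, a microsomal esterase, rose by 2.82 ± 0.132 (7.06-fold), Ces1d, a carboxylesterase of the endoplasmic reticulum, by 1.23 ± 0.136 and Lipa, the lysosomal acid lipase, by 0.61 ± 0.054. The wild-type means of Aadac (4.58) and Ces1d (3.21) were as dim as Plin5 or dimmer, so these folds too can be compressed and the wild-type signals cannot be told from no expression. The partners of the Pnpla2 lipase were named after their values were seen. G0s2, its inhibitor, is among the 7 genes counted as higher and rose by 0.81 ± 0.098 (adjusted p = 0.000445). Abhd5, its activator, stood at -0.10 ± 0.067 (adjusted p = 0.372).

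Of 17 genes of fatty acid uptake, binding and activation, 6 rose and 0 fell in limma (0 also at an unadjusted p under 0.05), with a median of 0.13. Slc27a5, a liver acyl-CoA synthetase of the fatty acid transport family, rose by 1.23 ± 0.162 from a dim wild-type mean of 3.73. Got2, the mitochondrial aspartate aminotransferase also described as a fatty acid binding protein of the plasma membrane, rose by 0.56 ± 0.061, and Dbi, the acyl-CoA binding protein, by 0.53 ± 0.063. Of the other fatty acid binding protein genes on the list (Fabp2, Fabp3, Fabp4, Fabp6 and Fabp7, named after their values were seen) each had overlapping groups and an adjusted p of 0.34 or more.

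Of 14 lipoprotein receptors, lipases and partners, 8 rose and 3 (Lrp8, Lsr and Lrpap1) fell, with a median of 0.29. Lrp1, a large endocytic receptor for remnant lipoproteins, rose by 0.65 ± 0.054, Angptl8, a hepatokine that regulates lipoprotein lipase, by 1.06 ± 0.091, and Sort1, a sorting receptor, by 0.59 ± 0.072, which became 0.17 with the mean of its probe sets (adjusted p = 0.144) and 0.32 after removing the median change of its chromosomal neighbours. Lrp8, the apolipoprotein E receptor most like that of Vldlr, fell by 0.48 on the log2 scale (SE 0.083; adjusted p = 0.00308) and was named after its values were seen.

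Droplet coat and formation genes had 4 of 14 higher and 1 lower, with a median of 0.01. Hsd17b13, a droplet protein of hepatocytes, rose by 1.41 ± 0.057 (2.66-fold), while its paralog Hsd17b11, also found on droplets, fell by 0.69 on the log2 scale (SE 0.056). Bscl2, which encodes seipin, rose by 0.33 ± 0.077. The other perilipins measured, Plin1, Plin3 and Plin4, did not pass, with differences of -0.33, -0.15 and -0.07. Leaving out knockout replicate 2 gave 2 higher, and leaving out wild-type replicate 2 or knockout replicate 3 gave 2 lower.

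Glycerolipid and sterol ester synthesis had 5 of 14 higher and 1, Agpat3, lower, with a median of -0.02. Gpam, the mitochondrial acyltransferase that starts glycerolipid synthesis, rose by 0.60 ± 0.060, Lpin1, a phosphatidate phosphatase, by 0.48 ± 0.052, and Agpat4 by 0.30 ± 0.058. Without knockout replicate 1, 0 were lower in limma.

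**Figure D5:**
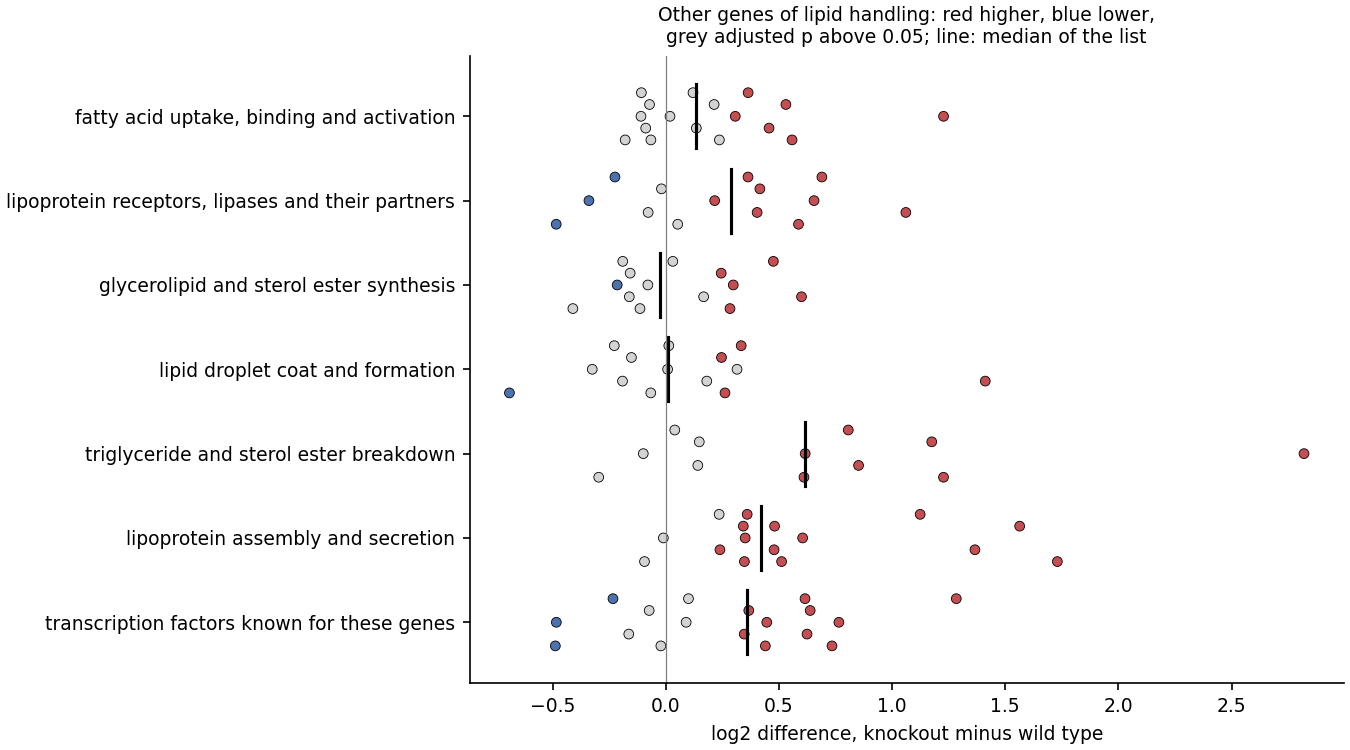
Log2 difference between knockout and wild type (x axis) of each measured gene of the 7 lists, which do not hold the 10 genes themselves. Red points rose and blue points fell at an adjusted p of 0.05, grey points did not pass, and the line marks each list's median, from -0.02 to 0.61.

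Of 18 transcription factors and coactivators known for these genes, 10 rose and 3 (Hif1a, Pparg and Srebf2) fell, with a median of 0.36. Mlxipl, which encodes the carbohydrate response factor ChREBP, rose by 1.28 ± 0.096, Rxra, the partner of the PPARs, by 0.76 ± 0.068, and Foxo1, a factor held back by insulin signalling, by 0.73 ± 0.075, which became 0.44 with the mean of its probe sets and 0.48 after removing the median change of its chromosomal neighbours, past the threshold in both. Ppara, the fatty acid sensor of liver, rose by 0.37 ± 0.065 (adjusted p = 0.00378) and Pparg, the adipocyte form, fell by 0.23 on the log2 scale (SE 0.065; adjusted p = 0.0322). Hnf4a rose by 0.45 ± 0.055 (adjusted p = 0.000466) and Srebf1 by 0.61 ± 0.070 (adjusted p = 0.000316).

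The genes whose signal was most like that of each member over the 8 arrays, among genes above the median signal, were found by Pearson's r as a description. Each r spans both genotypes, so it holds the difference between them as well as the spread within each. Mttp was most like Lmbrd1 and Rnf125 (r = 0.998 each), Vldlr like Slc25a13 and Atp1b1 (r = 0.999 each), Fabp1 like Afmid (r = 0.997) and Tceal5 (r = 0.996), Cd36 like Pex13 and Gmppa (r = 0.995 each) and Dgat2 like Sardh (r = 0.997) and Clybl (r = 0.995). Fabp5 was most like Gm6682 (r = 0.992) and Prr14l (r = 0.987), and Plin2 like Arhgef2 (r = 0.994) and Ift43 (r = 0.991). For the members that did not pass, r was lower, from 0.954 to 0.975, with Bicdl1 and Plekhg3 for Dgat1, 4930594M22Rik and Cdkl3 for Plin5, and Ctc1 and Timm50 for Pnpla2.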

How the data were processed

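Total RNA of 8 AML12 cultures was labelled with biotin and hybridised to Affymetrix arrays, per the labels' protocols. The deposited values are log2 signals per probe set (0.44 to 13.55), a scale read from the values. The sources used here do not give the authors' background correction and normalization. No further normalization was applied. Of 41345 probe sets, 23521 had 1 gene symbol, 1814 several and 16010 none listed. Each of 22180 genes was represented by its single-symbol probe set of highest mean. Gene positions came from RefSeq's GRCm38.p6 table.

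Genotypes were compared with limma 3.58.1 (R 4.3.3) in a model with no term but genotype, with Benjamini-Hochberg adjustment over all genes and a threshold of 0.05. Precision is limited by 4 arrays per group. The cultures are called separate, and whether they are independent is not stated further. In simulated data of 22180 genes the fit found 50.7% of log2 changes of 0.5 and 88.1% of log2 changes of 1. Only 67 genes were changed at each of these sizes and 66 by 2, a far smaller share than was called in the real data. The adjustment depends on that share, so these rates need not hold for the real data. The members and lists were chosen with earlier results of these data known. Of 118 listed symbols 105 were used. The text names the members, Vwa8, the 3 genes of smallest adjusted p per list, 4 fixed factors, and the 2 genes most like each member, with others marked where they or their lists are introduced. Same-numbered arrays of the genotypes did not deviate together (r from -0.002 to 0.059). Alternatives covered the replicate block, normalization, variance model, array weights, dim genes, the choice of probe set, neighbouring genes and each array left out. Figures were drawn with matplotlib 3.10.9 (Python 3.11.15).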

Additional observations from a re-analysis of the deposited data

How the results depend on the processing

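Direction and call held for Mttp, Fabp1, Vldlr, Cd36, Dgat2, Fabp5, Plin2 and Dgat1 under all 18 alternatives, including leaving out each array in turn. Of 953 recomputed values, 924 counted as unchanged. For genes and pairs this meant the same direction and call, and for counts an equal value or one within 1.5 times. For pairs with 1 array left out it meant the same direction and a shift under the pooled SD. The size of a gene's change was not judged, so Pnpla2 at -0.12 with neighbours subtracted counted as unchanged. Plin5 passed with the replicate block (0.30, adjusted p = 0.0331), with quantile normalization (0.33), without the dimmest 25% or 50% of genes (0.30 each), and with neighbouring genes' median subtracted (0.33), and ran from 0.23 to 0.37 when each array was left out. Pnpla2 passed with an intensity trend and robust variances and without the dimmest 25% or 50% of genes (-0.24 each), and ran from -0.29 to -0.19 when each array was left out. The change of Vldlr minus that of Cd36, not called, turned to -0.18 with neighbouring genes' median subtracted and ran from -0.020 to 0.10 over the arrays left out. Synthesis genes called lower numbered 2 with quantile normalization, 4 with the intensity trend, 3 and 4 without the dimmest 25% and 50%, 0 with neighbours subtracted, and 0 to 1 over the arrays left out. Synthesis genes called higher numbered 3 with the replicate block. Droplet genes called lower numbered 3 with the trend, 2 and 3 without the dimmest 25% and 50%, and 1 to 2 over the arrays left out. Droplet genes called higher numbered 2 with neighbours subtracted and 2 to 4 over the arrays left out. The trend called 1 uptake gene lower, and subtracting neighbours called 1 breakdown gene lower. Leaving out dim genes lowers the number of tests and also changes the variance estimate that limma shares between genes, and these were not separated. The cause of these and the other shifts was not tested. The arrays share only a number, so the block shows no pairing. Leaving out 1 array makes the permutation test of pairs unable to pass, so only their values were compared. With 4 arrays per group and no measure of background, small changes of dim genes such as Plin5 stay uncertain.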

Other observations

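Hsd17b13 and Hsd17b11, droplet-associated paralogs, lie side by side on chromosome 5 in GRCm38.p6 and changed in opposite directions without overlap of the groups. Hsd17b13 (103955442 to 103977388) went from 8.58 ± 0.044 (SD, n = 4) to 9.99 ± 0.063 (n = 4), and Hsd17b11 (103989765 to 104021796) from 8.45 ± 0.069 to 7.76 ± 0.013. Their limma adjusted p were 1.27e-06 and 4.38e-05. The pair was noticed after its values were seen.

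The members' genes were spread over 8 chromosomes, with Mttp and Fabp5 both on chromosome 3 and Dgat2 and Pnpla2 both on chromosome 7. Mttp and Fabp5 changed in opposite directions.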
